A study of Saccharomyces cerevisiae with 25 samples.

Results

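The data described here concern the 33 subunits of the yeast 26S proteasome and RPN4, the transcription factor that activates their genes. The members were taken from a fixed list of 34 open reading frames (ORFs), all of which were found among the 6696 ORFs counted in every library. They comprise 7 alpha and 7 beta subunits of the core particle, 6 ATPases of the base, 13 non-ATPase subunits of the base and lid, and RPN4 itself. Messenger RNA was counted by RNA-seq in 12 libraries, and ribosome-protected fragments (footprints) by ribosome profiling in 13 libraries, from cells treated with tunicamycin (Tm), an inhibitor of N-glycosylation that causes stress of the endoplasmic reticulum (ER). Tm was used at 1 µg/ml. The W303-1a strain was sampled at 0, 1, 2 and 4 h of Tm. Each treated time was represented by 1 library per assay, and the untreated cells by 2 per assay. The eS7-4KR and eS7-WT strains were sampled at 4 h and 0 h, with 2 libraries per assay, except that eS7-WT at 0 h had 1 mRNA library. All strains were MATa and carried the ade2, his3, leu2, trp1, ura3 and can1 markers. In both eS7 strains the chromosomal RPS7a and RPS7b genes, which encode the ribosomal protein eS7, were replaced by HisMX6 and natNT2. The only eS7 was then made from a pRS315 plasmid carrying either RPS7a-4KR-3HA, in which the 4 lysines that receive ubiquitin are arginine, or RPS7a-3HA. Both eS7 strains thus differed from W303-1a also in the tag and the plasmid, and the labels do not state whether replicate libraries came from separate cultures, so the p-values measure the spread between these libraries.

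The proteasome is the protease that degrades proteins marked with ubiquitin. Its core particle is a barrel of stacked alpha and beta rings, and the beta rings hold the active sites. The regulatory particle, made of base and lid, binds ubiquitin chains, removes them, unfolds the substrate with its ATPase ring and feeds it into the barrel. In yeast the subunit genes share a promoter element bound by Rpn4, and Rpn4 is itself a short-lived substrate of the proteasome, so that a loss of proteasome capacity stabilizes Rpn4 and raises transcription of the subunits. RPN4 transcription responds in turn to stress factors such as Hsf1, Yap1, Pdr1 and Pdr3. ER-associated degradation sends misfolded ER proteins to the same protease.

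Depth was ample for the members. The footprint libraries held 3423907 to 33858553 counted reads and the mRNA libraries 28309641 to 49246452, and the lowest count of any member in any library was 176. The labels were checked first. RPS7B counts were 0.248 to 0.435% of RPS7A counts in the mRNA of the eS7 strains, against 17.9 to 26.8% in W303-1a. In footprints they were 6.78 to 12.6% in the eS7 strains, where the gene is replaced, against 33.9 to 50.5% in W303-1a. How reads were shared between these near-identical genes is not given in the sources used here. The MATa genes STE2, BAR1 and MFA1 were detected in every library. The MATalpha gene MF(ALPHA)1 was at 2.22 cpm of the unadjusted library total or less and STE3 at 16.4 or less. As a check of the treatment, 8 of 8 listed target genes of the unfolded protein response (FPR2, DER1, KAR2, SIL1, EUG1, PDI1, LHS1 and ERO1) rose at every treated time in every strain in both assays.

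Changes are given as log2 values from edgeR's quasi-likelihood test with TMM scaling, which sets each gene against the typical gene of the library, and a member was called at a Benjamini-Hochberg adjusted p under 0.01. The choice of scale matters for these genes. With counts taken as a share of the library total (total-count scaling), the median change of all genes was no longer near 0. It was 0.07 (mRNA) and 0.15 (footprints) at 1 h in W303-1a, 0.50 and 0.56 at 2 h, and 0.75 and 0.97 at 4 h. At 4 h it was 0.17 and 0.11 in eS7-4KR and 0.66 and 0.86 in eS7-WT, and between these strains it was 0.00 and 0.53 at 0 h and -0.45 and -0.11 at 4 h. On that scale 61.6% of all genes were called higher and 18.0% lower in the W303-1a mRNA at 4 h, against 37.6% and 36.0% with TMM. The distance of the subunits' median from the all-gene median hardly depended on the scale. In W303-1a mRNA at 4 h, for example, it was 0.32 on each. As shares, the 33 subunits took 0.333 and 0.303% of counted mRNA reads in W303-1a at 0 h and 0.428%, 0.673% and 0.637% after 1, 2 and 4 h. The 95% Wilson intervals were at most 0.00293 percentage points either side and cover counting error only. All levels are relative to the other RNA of the library, so more RNA from these genes and less from the rest cannot be told apart. The single treated W303-1a libraries took their spread in the fit from the untreated pairs.

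One feature of the eS7 footprint libraries touched the subunits as a set. In all 4 footprint groups, 33 of 33 subunits had a higher level in replicate 2 than in replicate 1, with a median ratio of 1.27 in eS7-4KR at 4 h, 1.32 in eS7-4KR at 0 h, and 1.24 in eS7-WT at both times. The median ratio of all genes lay between 0.980 and 1.03 in the same groups. The mRNA replicates showed no such shift, with 15, 19 and 21 of 33 subunits higher in replicate 2. The spread between footprint replicates was therefore wide for every subunit in the same direction, and the results below that rest on these libraries are given also without single libraries. Leaving out 1 of them makes the replicate numbers unequal between the groups compared. The shift between the replicates then enters the difference. The footprint lengths that the authors kept also differed between the eS7 groups, and length and group cannot be told apart.

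RPN4 (YDL020C, chromosome IV, 415113 to 416708 in the R64 assembly) had the largest change of the members at 4 h in W303-1a in both assays, but not at 1 or 2 h. In W303-1a its mRNA stood at 55.4 and 67.0 cpm (here and below, counts relative to the library total after TMM scaling) at 0 h and 70.6, 74.4 and 168 after 1, 2 and 4 h. Its footprints stood at 45.0 and 48.6 cpm at 0 h and 54.3, 66.6 and 195 after 1, 2 and 4 h. The 1 h and 2 h libraries lay slightly above both untreated libraries in each assay, and the 4 h library lay far above all others. At 4 h the RPN4 mRNA was 2.75-fold higher (log2 1.46, SE 0.10, adjusted p = 1.8e-09 by edgeR), a change larger than that of 87.2% of all genes tested. RPN4 footprints were 4.14-fold higher at 4 h (log2 2.05, SE 0.12, adjusted p = 2.6e-10), above 90.9% of genes. At 2 h the footprint change of 0.50 was called (adjusted p = 0.0039), but the call was lost with DESeq2 (0.042), without the filter on low counts (0.032), without untreated footprint replicate 1 (0.018) and without replicate 2 (0.011). The mRNA change of 0.28 at 2 h was not called (adjusted p = 0.028), although it was without untreated mRNA replicate 2 (log2 0.42, adjusted p = 0.00091). At 1 h the changes were 0.21 in mRNA and 0.20 in footprints, with adjusted p of 0.14 and 0.29. The mRNA value at 1 h also depended on untreated mRNA replicate 2, without which it was 0.35 and called (adjusted p = 0.0079).

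**Figure D1:**
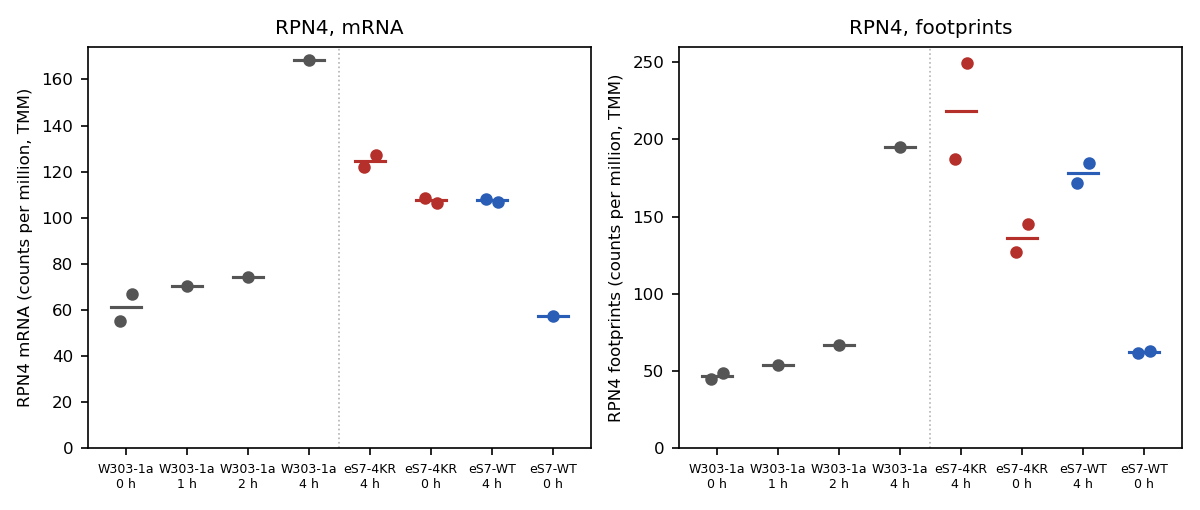
RPN4 level in each library, in cpm with TMM scaling, for mRNA (left) and footprints (right). Points are libraries and bars are group means. W303-1a and the eS7 strains were scaled separately, so levels are compared only on the same side of the dotted line. The W303-1a library at 4 h stands at 168 cpm of mRNA and 195 cpm of footprints, and both eS7-4KR libraries at 0 h lie above the eS7-WT libraries at 0 h in each assay.

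With TMM scaling the subunits took another course in W303-1a: they rose early and were highest at 2 h, when RPN4 mRNA had changed little. At 1 h, 17 of 33 subunits were called higher in mRNA, where 18.3% of all genes were, and 12 in footprints, where 11.7% were. At 2 h, 29 were higher in mRNA (35.8% of all genes) and 28 in footprints (29.8%). At 4 h, 18 were higher in mRNA (37.6%) and 12 in footprints (32.0%). No subunit was called lower at any of these times. The median subunit change in mRNA was 0.42, 0.66 and 0.35 at 1, 2 and 4 h, beside an all-gene median of 0.00, 0.04 and 0.04, and in footprints it was 0.37, 0.57 and 0.26, beside -0.01, -0.01 and 0.02. All 33 subunits had their highest mRNA library at 2 h, as did 18.7% of all genes, and 29 of 33 had their highest footprint library at 2 h, as did 16.6% of all genes. From the 2 h library, the 4 h library was lower for 33 of 33 subunits in mRNA (median ratio 0.807) and for 32 of 33 in footprints (0.795). RPN4 went the other way over the same interval, with a 4 h over 2 h ratio of 2.26 in mRNA and 2.93 in footprints. The 4 h and 2 h libraries were single, so this step has no replicate check. The subunit step in footprints also depended on the scale. As a share of counted footprint reads, the subunits took 0.949% at 2 h and 0.979% at 4 h. In mRNA these shares were 0.673% and 0.637%.

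These counts depended on the settings. At 4 h the direction of PUP1 and RPN8 mRNA also depended on the scale, as given below. DESeq2 called 4, 21 and 9 subunits in mRNA after 1, 2 and 4 h, and 2, 18 and 4 in footprints, all of them higher. Without untreated footprint replicate 1, the footprint calls over the 34 members were 3 at 1 h and 4 at 4 h, in place of 12 and 13, and without replicate 2 there were 4 at 1 h. The share of all genes called in these runs is not given here, so these drops are not a result particular to the subunits. Total-count scaling called all 33 subunits higher in both assays at 2 and 4 h.

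The 4 groups of subunits are given side by side for W303-1a, and differences between them were not tested. At 2 h, 7 of 7 alpha subunits, 6 of 7 beta subunits, 6 of 6 ATPases and 10 of 13 non-ATPase subunits were called higher in mRNA, with medians of 0.70, 0.80, 0.72 and 0.49. Of the beta subunits, PUP3 was the only one not called at 2 h in this fit, with a change of 0.18 in mRNA. At 4 h the counts were 5, 4, 3 and 6, with medians of 0.47, 0.49, 0.47 and 0.22. In footprints at 4 h they were 2, 4, 3 and 3. Of all genes, 35.8% were called higher in mRNA at 2 h, and 37.6% in mRNA and 32.0% in footprints at 4 h.

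RPT3 (YDR394W), an ATPase of the base ring, rose most among the subunits at 4 h. Its mRNA was at 102 and 108 cpm at 0 h and 167, 236 and 197 after 1, 2 and 4 h, all treated libraries above both untreated ones (at 4 h log2 0.91, SE 0.11, adjusted p = 8.6e-07). Another ATPase, RPT4 (YOR259C), was at 153 and 145 cpm at 0 h and 177, 206 and 166 after 1, 2 and 4 h, and its change of 0.15 at 4 h was not called (adjusted p = 0.23). RPT3 footprints were at 154 and 163 cpm at 0 h and 246, 332 and 263 after 1, 2 and 4 h (at 4 h log2 0.73), also the largest subunit change. The members of 1 ring thus stood between 0.15 and 0.91 at 4 h.

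Among the beta subunits, PRE3 (YJL001W), which bears the caspase-like active site, was at 64.5 and 60.0 cpm of mRNA at 0 h and 104, 129 and 106 after 1, 2 and 4 h. Its 4 h change was 0.77 (SE 0.10, adjusted p = 2.5e-06). PUP1 (YOR157C), which bears the trypsin-like site, was at 110 and 110 cpm at 0 h and 139, 143 and 105 after 1, 2 and 4 h. PUP1 was thus above its untreated libraries at 1 and 2 h and slightly below them at 4 h, with a difference of -0.06 (adjusted p = 0.61) that was 0.65 with total-count scaling.

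The alpha subunit with the largest 4 h change was PRE10 (YOR362C), at 99.1 and 104 cpm of mRNA at 0 h and 155, 203 and 151 after 1, 2 and 4 h (log2 0.58, SE 0.11, adjusted p = 0.00010). The smallest was that of PRE9 (YGR135W), the alpha subunit that yeast can lose and live, at 113 and 118 cpm at 0 h and 141, 173 and 129 after 1, 2 and 4 h (log2 0.15, adjusted p = 0.22). All treated libraries of both genes lay above their untreated libraries.

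Of the non-ATPase subunits, RPN9 (YDR427W), a lid subunit, was at 85.8 and 91.2 cpm of mRNA at 0 h and 131, 176 and 135 after 1, 2 and 4 h (log2 0.60, SE 0.11, adjusted p = 7.6e-05). RPN8 (YOR261C), the lid subunit that pairs with the deubiquitinase Rpn11, was at 130 and 126 cpm at 0 h and 150, 158 and 102 after 1, 2 and 4 h. Its 4 h library was the only treated one below the untreated libraries. That difference of -0.34 just missed the threshold (SE 0.11, adjusted p = 0.011), passed it with the newer quasi-likelihood method (0.0096) and without untreated mRNA replicate 2 (0.0052), and was 0.38 and called higher with total-count scaling (0.0068).

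**Figure D2:**
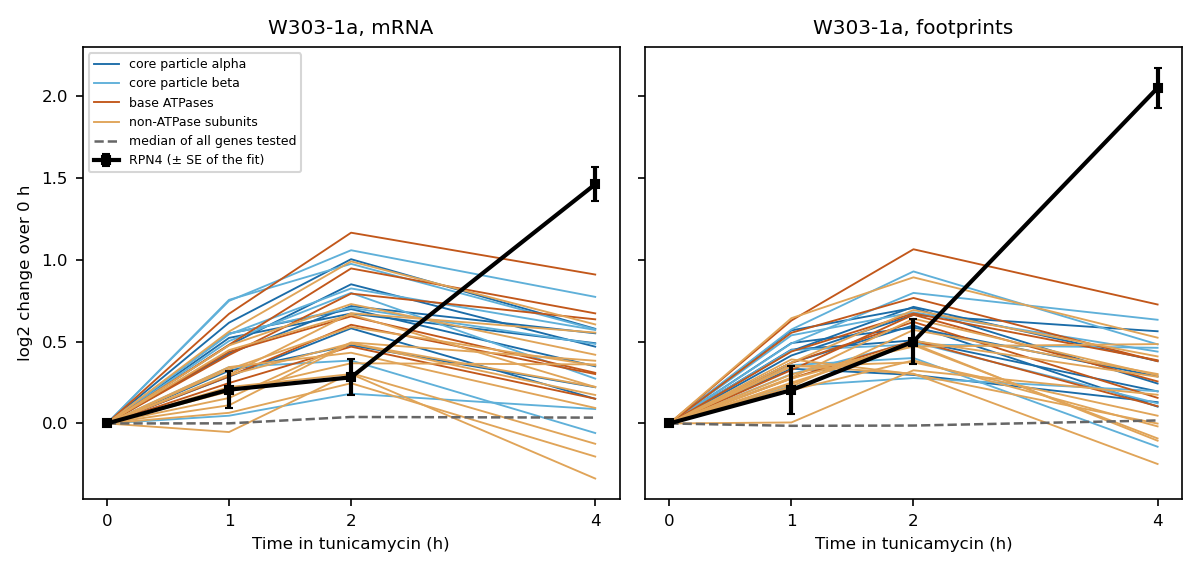
Change of each of the 33 subunits (thin lines, coloured by group) and of RPN4 (black, with the standard error of the fit) in W303-1a over 0, 1, 2 and 4 h of tunicamycin, as log2 of the level over 0 h, for mRNA (left) and footprints (right). The dashed line is the median of all 5392 genes tested. On this TMM scale the subunits peak at 2 h and are lower at 4 h. RPN4 reaches 1.46 in mRNA and 2.05 in footprints at 4 h.

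In the eS7 strains the subunits moved little against the typical gene at 4 h of Tm, while RPN4 footprints rose in both strains, by less in eS7-4KR than in eS7-WT. RPN4 mRNA in eS7-4KR was at 122 and 127 cpm at 4 h, against 109 and 106 cpm at 0 h, a difference of 0.21 that was not called (SE 0.13, adjusted p = 0.19). RPN4 footprints in eS7-4KR were at 187 and 250 cpm at 4 h, against 127 and 145 cpm at 0 h, an increase of 1.61-fold (log2 0.68, SE 0.13, adjusted p = 0.00015). The footprint groups did not overlap, with 4 h above 0 h as in 31.8% of all genes, although the libraries at 4 h differed from each other by a ratio of 1.33.

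In eS7-WT, RPN4 mRNA was at 108 and 107 cpm at 4 h, against 57.2 cpm at 0 h, an increase of 1.88-fold (log2 0.91, SE 0.17, adjusted p = 3.3e-05). RPN4 footprints in eS7-WT were at 172 and 184 cpm at 4 h, against 61.9 and 63.1 cpm at 0 h, an increase of 2.85-fold (log2 1.51, SE 0.14, adjusted p = 2.2e-10). The 4 h libraries lay above those at 0 h in both assays, as in 49.8% of all genes in mRNA and 43.0% in footprints. The change in eS7-4KR minus that in eS7-WT was -0.83 in footprints (SE 0.19, adjusted p = 0.00057), a call that held in every alternative run (adjusted p of 0.0034 or less). In mRNA the difference of the changes was -0.70 (SE 0.21, adjusted p = 0.0083). It lost its call without the filter on low counts (adjusted p = 0.011) and without any 1 of the 6 mRNA libraries of eS7-4KR at 4 h, eS7-4KR at 0 h and eS7-WT at 4 h (0.019 to 0.033), with values of -0.73 to -0.66. The 1 mRNA library of eS7-WT at 0 h could not be left out.

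No subunit was called in the mRNA of eS7-4KR at 4 h, where 17.3% of all genes were called higher, nor in that of eS7-WT, where 30.6% were. At an unadjusted p under 0.05 there were 0 such subunits in eS7-4KR and 5 in eS7-WT, and DESeq2 called 0 in both strains. In footprints 0 of 33 subunits were called in eS7-4KR (18.1% of all genes), where 0 passed an unadjusted p of 0.05 and DESeq2 called 0, and 3 were called in eS7-WT (34.6% of all genes). The median subunit change in eS7-4KR was -0.01 in mRNA and -0.04 in footprints, beside an all-gene median of 0.00 and -0.03, and became 0.15 and 0.10 with total-count scaling. In eS7-WT it was 0.07 and 0.11, beside 0.04 in each. As shares of counted reads, the subunits took 0.462 and 0.452% of mRNA in eS7-4KR at 4 h, against 0.419 and 0.435% at 0 h. In eS7-WT they took 0.560 and 0.555% at 4 h, against 0.347% at 0 h. With total-count scaling 1 subunit was called higher in each assay of eS7-4KR, against 31 in mRNA and 33 in footprints of eS7-WT. These fits had no term for replicate number. When it was added as a block within each assay, 1 member was called higher and 2 lower in eS7-4KR mRNA, and 2 and 2 in its footprints. In eS7-WT the counts were 9 and 2 in mRNA and 12 and 3 in footprints. The share of all genes called with that block is not given here.

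In eS7-4KR the lowest mRNA difference of any subunit at 4 h was that of RPN1 and the highest that of RPN11. RPN1 (YHR027C), a scaffold subunit of the base, was at 395 and 355 cpm at 4 h, against 494 and 480 cpm at 0 h (-0.38, adjusted p = 0.10). RPN11 (YFR004W), the deubiquitinase of the lid, was at 93.6 and 94.7 cpm at 4 h, against 81.0 and 78.6 cpm at 0 h (0.24, adjusted p = 0.19). Neither difference was called in the fit without a block for replicate number, and both were with the block within each assay. The times did not overlap in either gene, which was the usual case in this comparison: the 4 h pair lay above the 0 h pair in 40.5% of all genes and below it in 40.4%, and in 9 and 10 of the 33 subunits. Among the ATPases, RPT1 (YKL145W) was at 152 and 161 cpm at 4 h, against 182 and 182 cpm at 0 h (-0.22, adjusted p = 0.27). RPT5 (YOR117W), another ATPase, was at 147 and 146 cpm at 4 h, against 137 and 132 cpm at 0 h (0.12, adjusted p = 0.55). The ATPase ring thus stayed within this range.

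The core particle of eS7-4KR moved still less in mRNA, with all 14 changes between -0.09 and 0.13. The highest alpha subunit, PRE10, was at 162 and 156 cpm at 4 h, against 145 and 144 cpm at 0 h (0.13). The lowest, PRE9, was at 158 and 159 cpm at 4 h, against 158 and 167 cpm at 0 h (-0.04). The PRE10 pairs were apart and the PRE9 pairs were not. Of the beta subunits, PRE1 (YER012W) was at 133 and 138 cpm at 4 h, against 121 and 125 cpm at 0 h (0.13). PRE7 (YBL041W) was at 82.2 and 86.7 cpm at 4 h, against 87.3 and 92.1 cpm at 0 h (-0.09). With total-count scaling PRE9 and PRE7 were above 0, at 0.13 and 0.077.

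The 3 subunits called in eS7-WT footprints were RPN11, RPT3 and SCL1. RPN11 was at 195 and 247 cpm of footprints at 4 h, against 127 and 148 cpm at 0 h (log2 0.68). RPT3 was at 281 and 346 cpm at 4 h, against 183 and 227 cpm at 0 h (log2 0.61). SCL1 (YGL011C), an alpha subunit, was at 242 and 329 cpm at 4 h, against 175 and 214 cpm at 0 h (log2 0.55). Their 4 h libraries lay above those at 0 h, as did those of 8 of 33 subunits and 43.0% of all genes. Over all 34 members, 4 were called in eS7-WT footprints. There were 2 without eS7-WT 0 h replicate 1 or 4 h replicate 2, 8 without 0 h replicate 2 and 11 without 4 h replicate 1.

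The same genes had the highest mRNA change of their groups in eS7-WT at 4 h, without being called. RPT3 was at 160 and 160 cpm of mRNA at 4 h, against 110 cpm at 0 h (log2 0.54, adjusted p = 0.026). RPN11 was at 98.1 and 97.0 cpm at 4 h, against 69.0 cpm at 0 h (0.50, adjusted p = 0.017), and was called when any 1 of 5 footprint libraries was left out (0.0048 to 0.0089). In the core particle, SCL1 was at 136 and 147 cpm at 4 h, against 111 cpm at 0 h (0.34, adjusted p = 0.17). Each treated library of these genes lay above the untreated one. The beta subunit PRE1 was likewise at 159 and 155 cpm at 4 h, against 126 cpm at 0 h (0.32, adjusted p = 0.18).

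At the other end of eS7-WT, RPN8 was at 126 and 119 cpm of mRNA at 4 h, against 169 cpm at 0 h (-0.46, adjusted p = 0.062). PUP1 was at 88.1 and 90.8 cpm at 4 h, against 111 cpm at 0 h (-0.31, adjusted p = 0.17). Both genes lay below their untreated library, as they had at 4 h in W303-1a. PRE9 was at 127 and 122 cpm at 4 h, against 141 cpm at 0 h (-0.19, adjusted p = 0.41). RPT4 was at 153 and 156 cpm at 4 h, against 160 cpm at 0 h (-0.05, adjusted p = 0.84). None of the 4 was called. With total-count scaling RPN8, PUP1, PRE9 and RPT4 were above 0, at 0.17, 0.32, 0.44 and 0.58. They were also the lowest of their groups in W303-1a at 4 h.

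No subunit was called in the difference of the changes between the strains in the fit without a block for replicate number. Of all genes, 15.5% had a lower change in eS7-4KR in mRNA and 21.0% in footprints. At an unadjusted p under 0.05 there were 1 and 3 subunits, and DESeq2 called 0 and 0. The median difference of the subunits was -0.15 in mRNA and -0.15 in footprints, beside -0.04 and -0.04 over all genes, and 25 and 28 of 33 values were negative. With total-count scaling 18 and 32 subunits were called lower. Without eS7-WT 4 h footprint replicate 1, 3 members were called in footprints in place of 1, and without eS7-4KR 0 h footprint replicate 1, 2 members. When replicate number was a block within each assay, 10 members were called lower in footprints, and 3 lower and 1 higher in mRNA. The absence of subunit calls thus depended on how replicate number was treated. The share of all genes called with that block is not given here, so these counts are not a result particular to the members.

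The strains differed before any treatment. At 0 h, RPN4 mRNA was at 109 and 106 cpm in eS7-4KR, against 57.2 cpm in eS7-WT (1.88-fold, log2 0.91, SE 0.17, adjusted p = 8.2e-05). RPN4 footprints were at 127 and 145 cpm in eS7-4KR, against 61.9 and 63.1 cpm in eS7-WT (2.18-fold, log2 1.12, SE 0.13, adjusted p = 1.0e-07). Both eS7-4KR libraries lay above eS7-WT, as in 46.6% of all genes in mRNA and 36.8% in footprints. Both calls held in every alternative run, with adjusted p of 0.0011 or less. No run could leave out the 1 mRNA library of eS7-WT at 0 h, on which the mRNA call rests.

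The footprints of 13 of 33 subunits were also higher in eS7-4KR than in eS7-WT at 0 h, where 26.4% of all genes were, and 0 were lower. The median subunit difference was 0.37, beside -0.04 over all genes. The calls fell mostly in the regulatory particle: 11 of its 19 subunits were called (4 of 6 ATPases and 7 of 13 non-ATPase subunits, median 0.55 over the 19), against 2 of 14 core particle subunits (PRE9 and SCL1, median 0.19). The difference between these shares was not tested. Within replicate numbers 1 and 2, footprints of 29 and 32 of 33 subunits were higher in eS7-4KR at 0 h, with medians of 0.31 and 0.39. The share of all genes is not given for that comparison. Runs without 1 footprint library of 0 h leave the numbers unequal between the strains. Without eS7-4KR footprint replicate 2 or without eS7-WT footprint replicate 1, only 4 of the 34 members were called.

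RPT3 had the largest difference, with footprints at 371 and 485 cpm in eS7-4KR, against 183 and 227 cpm in eS7-WT (log2 1.06, SE 0.17, adjusted p = 8.2e-06). RPT2 (YDL007W), another ATPase, followed at 339 and 449 cpm in eS7-4KR, against 186 and 227 cpm in eS7-WT (0.93, SE 0.17, adjusted p = 2.8e-05). The lid subunit RPN12 (YFR052W) was at 266 and 368 cpm in eS7-4KR, against 155 and 195 cpm in eS7-WT (0.86, SE 0.17, adjusted p = 0.00010). RPN5 (YDL147W), another lid subunit, was at 311 and 416 cpm in eS7-4KR, against 194 and 241 cpm in eS7-WT (0.74, SE 0.18, adjusted p = 0.0011). In all 4 the eS7-4KR pair lay above the eS7-WT pair, as in 15 of 33 subunits and 36.8% of all genes. RPT3, RPT2 and RPN12 kept their calls in every alternative, whereas RPN5 lost its call without eS7-WT footprint replicate 1 (adjusted p = 0.020) or eS7-4KR footprint replicate 2 (0.025).

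In mRNA at 0 h, 3 of 33 subunits were called higher in eS7-4KR, where 21.0% of all genes were. RPT3 was at 193 and 198 cpm in eS7-4KR, against 110 cpm in eS7-WT (0.83, SE 0.22, adjusted p = 0.0023). RPN1 was at 494 and 480 cpm in eS7-4KR, against 284 cpm in eS7-WT (0.78, SE 0.23, adjusted p = 0.0073). RPT2 was at 171 and 170 cpm in eS7-4KR, against 106 cpm in eS7-WT (0.69, SE 0.21, adjusted p = 0.0069). RPT2 and RPN1 lost their calls without any 1 of the 6 replicated mRNA libraries (adjusted p of 0.011 to 0.037), and RPT3 without either eS7-4KR 0 h mRNA library (0.011 and 0.014). Over the 34 members, 1 call was left without either eS7-4KR 0 h mRNA library and 2 without any of the other 4. The median subunit difference in mRNA was 0.15, beside -0.01 over all genes. RPN13 (YLR421C), a ubiquitin receptor of the base, stood at the lower end, at 33.9 and 32.6 cpm in eS7-4KR, against 45.8 cpm in eS7-WT (-0.46, not called).

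**Figure D3:**
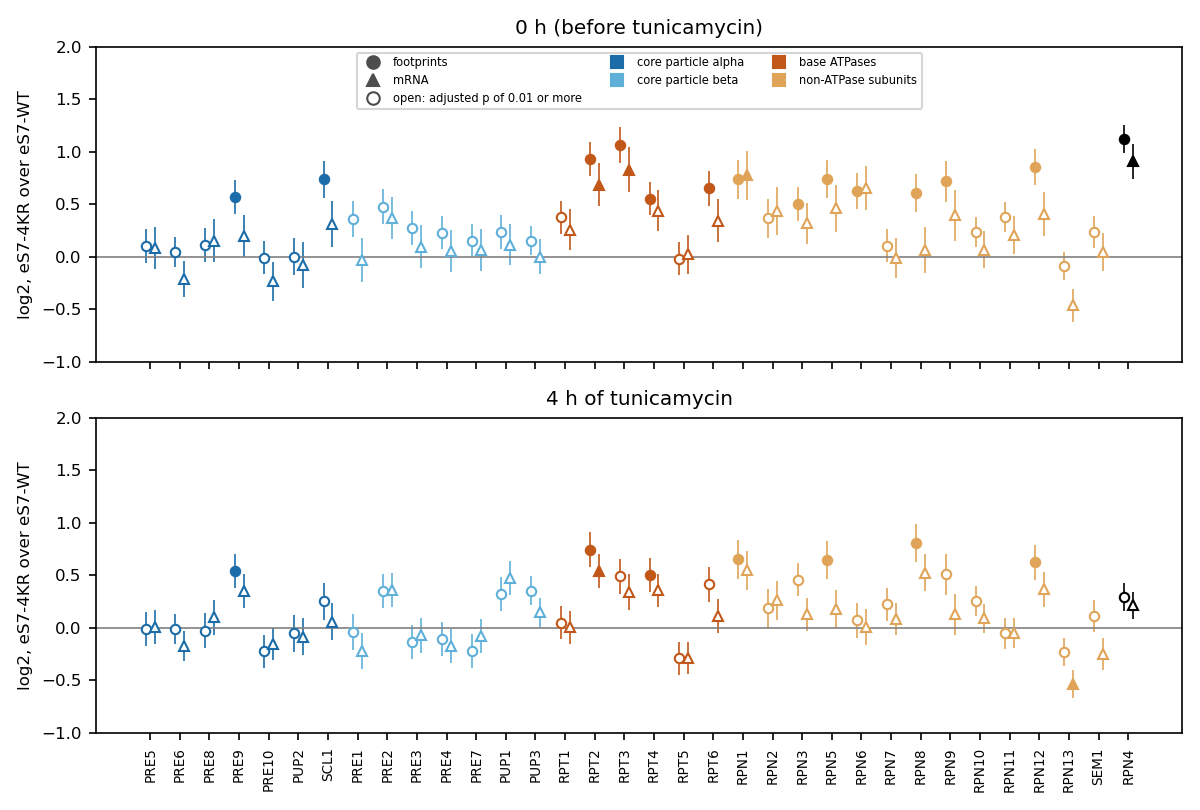
Difference between eS7-4KR and eS7-WT for each subunit and RPN4 at 0 h (top) and 4 h (bottom) of tunicamycin, as log2 of eS7-4KR over eS7-WT with the standard error of the fit. Circles are footprints, triangles are mRNA, and filled symbols have an adjusted p under 0.01. At 0 h most filled circles are base and lid subunits, with RPT3 at 1.06 and RPN4 at 1.12, and at 4 h RPN4 stands at 0.29.

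After 4 h of Tm the RPN4 differences between the strains were positive and did not pass the threshold. Those of 7 of the 33 subunits did in footprints, a smaller share than the 28.7% of all genes called higher there. RPN4 mRNA was at 122 and 127 cpm in eS7-4KR, against 108 and 107 cpm in eS7-WT (log2 0.21, 95% interval -0.04 to 0.47, adjusted p = 0.16), a value that was -0.24 with total-count scaling. RPN4 footprints were at 187 and 250 cpm in eS7-4KR, against 172 and 184 cpm in eS7-WT (0.29, 95% interval 0.04 to 0.55, adjusted p = 0.053). Without eS7-4KR footprint replicate 1 the footprint difference was 0.54 and was called (adjusted p = 0.00091).

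In footprints at 4 h, 7 of 33 subunits were called higher in eS7-4KR, where 28.7% of all genes were, and 0 lower. They were RPT2, RPT4, RPN1, RPN5, RPN8, RPN12 and PRE9. RPN8 had the largest difference, at 267 and 376 cpm in eS7-4KR, against 161 and 206 cpm in eS7-WT (0.81, SE 0.18, adjusted p = 0.00040). RPT2 was at 324 and 412 cpm in eS7-4KR, against 201 and 239 cpm in eS7-WT (0.74, SE 0.17, adjusted p = 0.00038). RPN1 was at 638 and 790 cpm in eS7-4KR, against 418 and 492 cpm in eS7-WT (0.65, adjusted p = 0.0038). In all 3 the eS7-4KR pair lay above the eS7-WT pair, as in 15 of 33 subunits and 39.1% of all genes.

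The remaining 4 differed by 0.50 to 0.64. RPN5 was at 325 and 439 cpm in eS7-4KR, against 218 and 271 cpm in eS7-WT. RPN12 was at 235 and 334 cpm in eS7-4KR, against 173 and 198 cpm in eS7-WT. Both of these are lid subunits. PRE9 was at 240 and 318 cpm in eS7-4KR, against 176 and 208 cpm in eS7-WT. RPT4 was at 291 and 359 cpm in eS7-4KR, against 214 and 246 cpm in eS7-WT. Within replicate numbers 1 and 2, footprints of 23 and 22 of 33 subunits were higher in eS7-4KR at 4 h, with medians of 0.23 and 0.20. The share of all genes is not given for that comparison. The runs below without 1 footprint library of 4 h leave the numbers unequal between the strains. All 7 calls were lost without eS7-4KR 4 h footprint replicate 2 (0 members called), and 2 members were left without eS7-WT 4 h footprint replicate 1. The RPT4 call was also lost without any single mRNA library (adjusted p of 0.012 to 0.014). There were 12 to 14 members without eS7-4KR 0 h replicate 1, eS7-4KR 4 h replicate 1 or eS7-WT 4 h replicate 2.

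In mRNA at 4 h, RPT2 was called higher in eS7-4KR (27.1% of all genes) and RPN13 lower (22.6%). RPT2 was at 146 and 160 cpm in eS7-4KR, against 108 and 102 cpm in eS7-WT (0.54, SE 0.16, adjusted p = 0.0063). RPN13 was at 36.4 and 40.3 cpm in eS7-4KR, against 57.9 and 53.4 cpm in eS7-WT (-0.54, SE 0.13, adjusted p = 0.0011). The RPT2 call was lost without any 1 of the 6 replicated mRNA libraries (0.011 to 0.066) and with total-count scaling (log2 0.09). The RPN13 call was lost without eS7-WT 4 h replicate 1 (0.017) or eS7-4KR 4 h replicate 1 (0.024). With total-count scaling 0 subunits were called higher and 19 lower in this comparison, with a median of -0.36 in place of 0.09. Over the 34 members, 0 or 1 calls were left without any single mRNA library, 5 without any of 7 footprint libraries, and 3 without eS7-4KR 4 h footprint replicate 2.

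Translation efficiency (TE) is the footprint level over the mRNA level, and a change of TE was tested as the interaction of assay with time or strain. No member, RPN4 included, was called in any of the 8 TE contrasts with edgeR or DESeq2 in the fits without a block for replicate number. The TE test was less sensitive than that of mRNA. On simulated counts with a log2 change of size 1 at 4 h, it found 56 (W303-1a) and 60 (eS7-WT) of 100 genes. The mRNA test found 97 and 93. The share of all genes called was 0.0927%, 2.32% and 3.95% after 1, 2 and 4 h in W303-1a, 0.900% in eS7-4KR and 4.41% in eS7-WT at 4 h, and 0.630% for the difference of these changes. Between eS7-4KR and eS7-WT it was 2.41% at 0 h and 4.62% at 4 h. At an unadjusted p under 0.05 there were 1, 3 and 4 members in W303-1a at 1, 2 and 4 h, 1 each in eS7-4KR and eS7-WT at 4 h, and 0 in the other 3 contrasts. RPN4 had the highest TE change of the members at 4 h in all 3 strains, at 0.59 in W303-1a (SE 0.17, adjusted p = 0.038), 0.47 in eS7-4KR (SE 0.18, adjusted p = 0.28) and 0.60 in eS7-WT (SE 0.21, adjusted p = 0.080). The W303-1a value was called without untreated mRNA replicate 1 (log2 0.73, adjusted p = 0.0025), where 2 members were called in all, and with total-count scaling (0.83, adjusted p = 0.00069). The lowest subunit TE change in W303-1a was that of PRE3 at each time, with -0.45, -0.56 and -0.65 after 1, 2 and 4 h, also not called. Between the strains at 0 h, 28 of 33 subunits had a positive TE difference, with a median of 0.17 beside 0.05 over all genes. With total-count scaling the all-gene median of that contrast was 0.62 and 31 subunits were called, and at 4 h of Tm it was 0.38 and 12 were called.

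**Figure D4:**
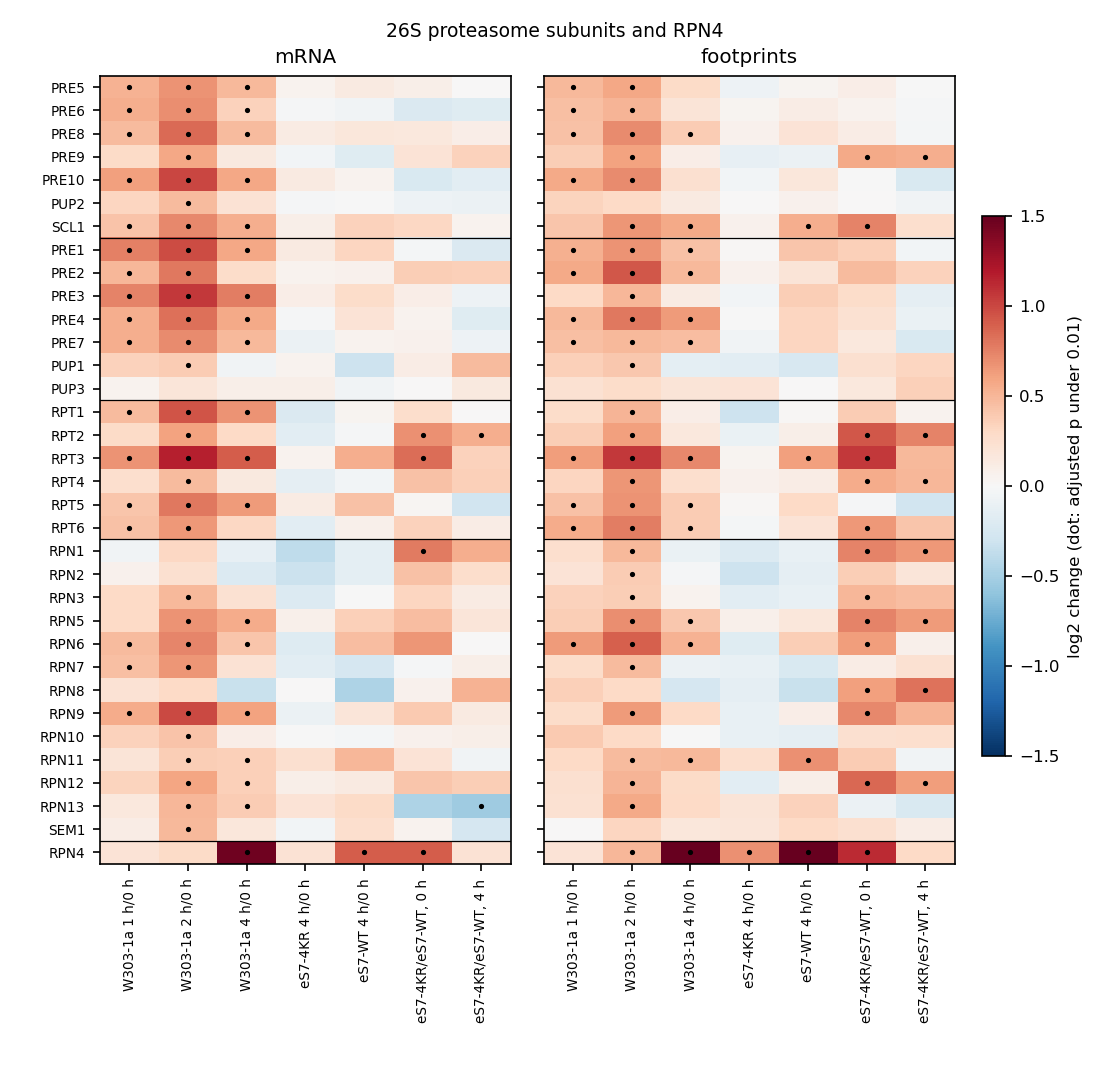
Log2 change of the 34 members (rows, grouped as alpha, beta, ATPase and non-ATPase subunits, then RPN4) in 7 comparisons (columns) for mRNA (left) and footprints (right). Red is higher and blue lower in the first-named condition, the colour scale ends at -1.5 and 1.5, and a dot marks an adjusted p under 0.01. The W303-1a column at 2 h holds 29 called subunits in mRNA and 28 in footprints, and the eS7-4KR column of 4 h over 0 h holds 0.

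Subunits of one complex were made at similar but not equal levels. Per 1000 codons, the mRNA of the 33 subunits in untreated W303-1a spanned 192 cpm (RPT2) to 576 cpm (PRE1), a ratio of 3.00, with a coefficient of variation of 24.9% and a median 3.84 times that of the median gene. Footprints per 1000 codons spanned 353 (RPT5) to 730 cpm (SEM1), a ratio of 2.07, with a coefficient of variation of 24.5%, and their median was 5.78 times that of the median gene. The 3 highest subunits in mRNA were PRE1 (576 ± 17.9), RPN10 (509 ± 49.8) and PUP2 (499 ± 21.7), and the 3 lowest RPT2 (192 ± 10.6), RPN7 (234 ± 0.54) and RPN9 (237 ± 10.1, SD, n = 2 each). RPN10 and PUP2 did not differ beyond their spread, nor did RPN7 and RPN9. In footprints the 3 highest were SEM1 (730 ± 33.4), SCL1 (718 ± 77.3) and PRE1 (694 ± 67.7), which overlapped, and the 3 lowest RPT5 (353 ± 8.94), RPN3 (369 ± 4.47) and RPN11 (371 ± 16.8), of which the last 2 overlapped. RPN4 was below every subunit, at 120 ± 16.0 cpm of mRNA and 89.7 ± 4.80 cpm of footprints per 1000 codons (SD, n = 2).

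Per codon, the subunits carried more footprints for their mRNA than the typical gene. In untreated W303-1a, 32 of 33 subunits had a footprint to mRNA ratio above the gene median, with a median of 0.53 on the log2 scale. Between 31 and 33 of them did in every strain and time. RPN10, the ubiquitin receptor that is also found free of the proteasome, was the exception at -0.37, and SEM1, the smallest subunit, was highest at 1.27, followed by RPN9 at 1.16. RPN4 was at -0.37 in W303-1a at 0 h, and at -0.34, -0.05 and 0.28 at 1, 2 and 4 h. It was at 0.77 in eS7-4KR at 4 h and 0.25 at 0 h, and at 0.77 in eS7-WT at 4 h and 0.14 at 0 h. These values are a description without a test.

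Genes that work beside the proteasome gave a background for the members. Of 10 assembly chaperones, 8 were called higher and 1 lower in W303-1a mRNA at 4 h, 4 higher and 0 lower in eS7-4KR, and 7 higher and 1 lower in eS7-WT. Of all genes, 37.6% were called higher and 36.0% lower in W303-1a, 17.3% and 13.5% in eS7-4KR, and 30.6% and 29.1% in eS7-WT, and the counts of the other lists below are to be read beside these shares. TMA17, a chaperone of base assembly made under stress, had the largest change, at 3.99 in W303-1a, 1.21 in eS7-4KR and 3.05 in eS7-WT. Its change in eS7-4KR minus that in eS7-WT was -1.84 in mRNA and -2.30 in footprints, both called. ADD66 and PBA1, which assemble the alpha ring, rose by 1.75 and 1.45 in W303-1a. POC4, another alpha ring chaperone, fell by 2.43 in the footprints of W303-1a and by 2.04 in those of eS7-WT.

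Among 6 proteasome-associated factors, 4 were called higher and 1 lower in W303-1a mRNA at 4 h, 2 and 1 in eS7-4KR, and 3 and 1 in eS7-WT. SPG5, a proteasome factor of stationary phase, rose by 3.78 in W303-1a, 1.75 in eS7-4KR and 3.13 in eS7-WT. ECM29, a scaffold that tethers core to regulatory particle, fell by 0.39, 0.60 and 0.48 in the same order. Of 9 ubiquitin and shuttle factors, 5 were higher and 1 lower in W303-1a, 1 and 0 in eS7-4KR, and 3 and 1 in eS7-WT, where 30.6% and 29.1% of all genes were called. UBI4, the polyubiquitin gene, rose by 2.68, 0.85 and 2.35, and at 0 h it was already 2.22 higher in eS7-4KR than in eS7-WT. RAD23, a shuttle factor, fell by 0.70 in W303-1a and by 0.89 in eS7-WT.

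The list of 7 genes that act on RPN4 or its protein was mixed, with 2 called higher and 2 lower in W303-1a mRNA at 4 h, 1 and 0 in eS7-4KR, and 2 and 0 in eS7-WT. HSF1 rose at 4 h by 1.23 in W303-1a, 0.51 in eS7-4KR and 1.22 in eS7-WT, and YAP1 by 0.50 in W303-1a. PDR3 fell by 0.63 and UBR2, part of the ubiquitin ligase of Rpn4, by 0.38 in W303-1a, whereas UBR2 rose by 0.63 in eS7-WT. At 0 h, mRNA of HSF1 (0.72), PDR1 (0.48) and YAP1 (0.45) was higher in eS7-4KR than in eS7-WT, beside RPN4 at 0.91. That comparison has 1 eS7-WT library, and 21.0% of all genes were called higher in it. By mRNA level alone, PDR3 (32.0 and 32.9 cpm against 22.6 cpm), UBR2 and MUB1 were also higher in eS7-4KR. RAD6 was lower, at 26.7 and 27.1 cpm in eS7-4KR against 33.5 cpm in eS7-WT. In footprints at 0 h, HSF1 was at 31.1 and 25.1 cpm in eS7-4KR, against 26.9 and 24.5 cpm in eS7-WT. PDR3 was at 16.3 and 12.0 cpm, against 16.0 and 14.2 cpm, so the strains overlapped in both genes. PDR1 footprints were at 60.7 and 53.1 cpm, against 47.0 and 43.7 cpm. Those of YAP1 were at 97.6 and 100 cpm, against 61.7 and 68.7 cpm. The calls of these lists were at an adjusted p under 0.01 by edgeR and are relative to the typical gene. On the total-count scale the median gene itself stood at 0.75 in W303-1a and 0.66 in eS7-WT, so a smaller fall, such as that of ECM29 in W303-1a and eS7-WT or of PDR3, UBR2 and RAD23 in W303-1a, lies above 0 there.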

How the data were processed

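Ribosome footprints (13 libraries) and rRNA-depleted mRNA (12 libraries) were sequenced by the authors from W303-1a, eS7-4KR and eS7-WT cells. The authors aligned the reads, dropped footprint duplicates by their random barcodes, and deposited raw read counts per ORF, with the number of codons counted. Their processing notes name CASAVA 1.8, Bowtie2 2.0.6, TopHat2 2.0.7 and the sacCer3 genome. Coordinates are those of the RefSeq R64 table, which named 6008 of the 6696 ORFs.

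Counts were tested with edgeR 4.0.16 (quasi-likelihood, TMM within assay) under R 4.3.3, in 1 fit of the 10 W303-1a libraries (5392 genes) and 1 of the 15 eS7 libraries (5558 genes). Genes whose mean count over the libraries of either assay was under 10 were left out, and all 34 members passed. P-values were adjusted by Benjamini-Hochberg over all genes tested, at 0.01. The adjusted p-values of the report are from these fits unless another tool is named. TE was the interaction with assay. Levels in cpm are counts relative to the library total after TMM scaling of that total, within W303-1a and within the eS7 strains separately, so levels cannot be compared between these sets. The scripts were checked on simulated counts. Levels per length divide by codons counted.

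Alternatives were total-count scaling, DESeq2 1.42.0, no filter, edgeR's newer quasi-likelihood method, leaving out each replicate, and blocks by replicate number. Per-library values were given for RPN4, for the subunits with the highest and lowest mRNA change at 4 h in each group and strain, and for members called between the eS7 strains (the 4 largest where over 8 were called). Other genes named at extremes, RPN13 at 0 h and the 3 subunits called in eS7-WT footprints among them, were chosen after their values were seen. The members and lists were chosen with earlier results of these data known. Promoter motifs and sequences were not analysed here.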

Additional observations from a re-analysis of the deposited data

Results flagged for a closer look

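The Tm response of RPN4 differed between the eS7 strains by a test of the difference itself. The change in eS7-4KR minus that in eS7-WT was -0.70 on the log2 scale in mRNA (SE 0.21, adjusted p = 0.0083 by edgeR) and -0.83 in footprints (SE 0.19, adjusted p = 0.00057). Of all genes, 15.5% and 21.0% had a lower change in eS7-4KR at the same threshold. RPN4 stood 0.91 (mRNA) and 1.12 (footprints) higher in eS7-4KR than in eS7-WT at 0 h, and 0.21 and 0.29 higher at 4 h. The mRNA difference lost its call without any 1 of the 6 replicated mRNA libraries, whose left-out values ranged from -0.73 to -0.66.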

How the results depend on the processing

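Counts of called members depended on the settings. The share of all genes called is not given for the runs with DESeq2, the newer quasi-likelihood method, no filter or 1 library left out. The counts of those runs are therefore not a result particular to the members. With DESeq2 they were 4 (mRNA) and 2 (footprints) at 1 h, 18 (footprints) at 2 h, and 10 and 5 at 4 h in W303-1a, and without the filter 11 and 5 at 1 h and 6 (footprints) at 4 h, with 0 for the difference of the mRNA changes. The newer quasi-likelihood method gave 5 for the strains' mRNA at 4 h. Total-count scaling gave 28 (footprints) at 1 h and 34, 34 and 1 (mRNA, footprints, TE) at 4 h in W303-1a, 1 and 2 in eS7-4KR, 32 and 34 in eS7-WT, 19 and 33 for the difference of these changes, 8, 34 and 32 between the strains at 0 h and 19, 12 and 12 at 4 h.

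Leaving out 1 library gave 14 to 19 (mRNA) and 3 to 18 (footprints) at 1 h, 29 to 30 and 21 to 29 at 2 h, and 18 to 20, 4 to 13 and 0 to 2 (TE) at 4 h in W303-1a. It gave 0 (mRNA) and 1 (footprints) throughout in eS7-4KR, 1 to 2 and 2 to 11 in eS7-WT, 0 to 1 and 1 to 3 for their difference, 1 to 6 and 4 to 18 between the strains at 0 h, and 0 to 5 and 0 to 14 at 4 h. The other TE counts stayed at 0.

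The shared replicate numbers were not taken as pairs, since there were only 2 of them and no label says what they share. Deviations of libraries with 1 number correlated at 0.424 to 0.589 between eS7 footprint groups, but at -0.0171 between the assays of W303-1a and -0.306 to 0.0177 between eS7 mRNA groups. As a replicate block, the numbers gave 9 and 9 called members in eS7-WT, 2 and 3 for the difference of the changes, 10 (mRNA) at 0 h, and 7 and 12 at 4 h between the strains. As a block within each assay they gave 3, 4 and 1 (TE) in eS7-4KR, 11, 15 and 1 in eS7-WT, 4 and 10 for the difference, 15, 23 and 1 at 0 h, and 13, 21 and 1 at 4 h. Of these, 2 and 2 were lower (mRNA, footprints) in eS7-4KR and 2 and 3 in eS7-WT. Lower calls were 3 and 10 for the difference, 1 and 0 at 0 h, and 3 and 3 at 4 h. The share of all genes called with any of these blocks is not given here, so the counts are not a result particular to the members. With the numbers of the eS7-4KR 4 h mRNA crossed, chosen after seeing the data, this block gave 5, 5 and 1 in eS7-4KR, 12, 18 and 1 in eS7-WT, 4 and 10 for the difference, 15, 23 and 4 at 0 h, and 14, 22 and 1 at 4 h. The block within each assay also called RPN4 in TE at 4 h over 0 h, with 0.46 in eS7-4KR (adjusted p = 0.0068) and 0.59 in eS7-WT (0.0011), and in footprints of eS7-4KR over eS7-WT at 4 h (0.28, adjusted p = 0.0023), where the values within numbers 1 and 2 were 0.12 and 0.44. A block by culture, with the assays of a number joined, left all 3 W303-1a TE counts at 0.

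Total-count scaling reversed the mRNA change of PUP1 (0.65) and RPN8 (0.38) in W303-1a, of PRE9 (0.13) and PRE7 (0.077) in eS7-4KR, of PRE9 (0.44), PUP1 (0.32), RPT4 (0.58) and RPN8 (0.17) in eS7-WT, and of RPN4 between the strains at 4 h (-0.24). The block by number reversed RPT4 in eS7-WT (0.045). The W303-1a TE change of RPN4 at 1 h, near 0, was 0.083 with total counts, 0.024 with DESeq2 and 0.014 with the block by culture, and ranged over -0.15 to 0.14 without single libraries. Without single libraries PRE9 mRNA in eS7-4KR ranged over -0.077 to 0.0022, the RPN4 TE difference of the changes over -0.35 to 0.044, and the RPN4 TE difference at 4 h over -0.14 to 0.32. With the settings of the report none of these changes was called.

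With total counts, higher and lower calls over all genes were 53.4 and 21.3% (mRNA) and 50.5 and 18.1% (footprints) at 2 h in W303-1a, against 35.8 and 33.8% and 29.8 and 30.7% with TMM. At 4 h the footprints had 62.4 and 16.2% against 32.0 and 32.6%. In eS7-4KR they were 13.6 and 5.18%, and 14.1 and 7.39%, against 17.3 and 13.5%, and 18.1 and 19.8%. In eS7-WT they were 38.1 and 12.9%, and 52.7 and 16.3%, against 30.6 and 29.1%, and 34.6 and 34.9%. For the difference of the changes they were 9.27 and 14.8%, and 11.3 and 32.3%, against 19.3 and 15.5%, and 22.9 and 21.0%. Between the strains the footprints at 0 h had 39.4 and 6.89% against 26.4 and 26.5%, and the mRNA at 4 h 10.2 and 30.3% against 27.1 and 22.6%. The cause of these shifts was not tested. The W303-1a residual degrees of freedom were 2, all from the untreated pairs, so their spread carries the W303-1a calls.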
